A study of Mus musculus with 12 samples.

Results

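The genes described here are 36 genes of the surface ectoderm and epidermis, the epithelial sheet that covers the limb bud: 10 keratins, 4 claudins, 8 transcription and splicing factors, 9 desmosome and hemidesmosome genes, 4 genes of adherens junctions, polarity and adhesion, and Sfn. They come from a fixed list of names that was drawn up with earlier results of these data known. Each was read by its brightest probe set naming 1 gene. All 36 of 36 were measured, among 18193 genes in all. RNA came from limbs of C57BL/6 mouse embryos that were wild type (WT, Lmx1b +/+) or knockout (KO, Lmx1b -/-), at 11.5, 12.5 and 13.5 days post coitum (dpc), with 2 arrays per group and 12 arrays in all. The first 2 stages were taken as limb bud with girdle. At 13.5 dpc the tissue was labelled as handplate, and the series text gives the zeugopod and autopod. RNA of forelimbs and hindlimbs was pooled. The extraction protocol states 6 limbs for each array, whereas the design text states only 3 for 12.5 dpc, so the pool size of that stage is uncertain. The 2 arrays of a group held different embryos, and the p-values below measure the spread between such pools. Values are log2 expression made with RMA, and a level of one gene is not compared with that of another.

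The limb ectoderm begins as a single layer of cells with simple keratins, over which a temporary outer layer, the periderm, then forms. Under the control of the p63 factor, encoded by Trp63, the ectoderm becomes a stratified epithelium with basal keratins below and, later, suprabasal keratins above. Lmx1b itself acts in the dorsal mesenchyme, where it is switched on by WNT7A from the dorsal ectoderm. The genes listed here were chosen for the layer next to the cells in which Lmx1b works. RNA came from limbs and not from separated ectoderm, so other cells that express a listed gene are read together with the ectoderm.

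A few of the keratins can be shown with the DNA before their start sites. RefSeq start windows (GRCm38.p6, 250 bases before to 50 after a start) were held for 16 of the 36 genes. In 11 of these the window began at the outer start of the gene, and 4 of the 11 were keratins. These 4 are printed because they were the keratins with such a window, whatever their values. In the values below Krt5 rose late, Krt7 dipped and returned, and Krt8 and Krt18 fell and stayed low. Each run is the 150 bases just before the start, 5′ to 3′ on the strand of the gene, with matches to GCCNNNGGC, a motif of AP-2 factors such as those encoded by Tfap2a and Tfap2c, in capitals. Krt5 (chr15:101712906-101713055) and Krt8 (chr15:102004343-102004492) lie on the minus strand, and Krt7 (chr15:101412253-101412402) and Krt18 (chr15:102028066-102028215) on the plus strand.
Krt5: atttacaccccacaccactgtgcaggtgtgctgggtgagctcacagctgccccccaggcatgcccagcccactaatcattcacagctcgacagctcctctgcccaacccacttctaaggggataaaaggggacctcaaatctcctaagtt
Krt7: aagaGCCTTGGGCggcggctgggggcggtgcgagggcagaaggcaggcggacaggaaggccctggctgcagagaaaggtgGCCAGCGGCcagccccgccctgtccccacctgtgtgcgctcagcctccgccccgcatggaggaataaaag
Krt8: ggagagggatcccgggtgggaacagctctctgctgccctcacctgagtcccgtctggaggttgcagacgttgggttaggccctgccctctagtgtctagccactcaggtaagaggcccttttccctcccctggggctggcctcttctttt
Krt18: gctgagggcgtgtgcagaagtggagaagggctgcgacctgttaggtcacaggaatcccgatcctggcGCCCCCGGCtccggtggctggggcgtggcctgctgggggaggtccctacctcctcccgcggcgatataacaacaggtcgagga

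Over the whole windows, searched on both strands, the AP-2 letters occurred in 4 of the 16 genes (25.0%), Krt7, Krt18, Dsp and Cldn3, against 18.5% of the 27025 genes with a window. The grainyhead-like letters AACCGGTT were in 0 of the 16 and in 0.174% of all. The letters TATAAA were found in Krt8, where they span the start and so lie mostly outside the printed run, and in Krt10, which makes 12.5% against 15.7% of all genes. These matches describe letters only and no binding was measured here.

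Most ectoderm genes dipped at 12.5 dpc and rose at 13.5 dpc. Between 11.5 and 12.5 dpc, with WT and KO weighted equally (4 arrays per stage), 21 of the 36 genes were lower and 0 were higher (limma, Benjamini-Hochberg adjusted p under 0.05). Over all genes 21.0% were lower and 12.3% higher. The median change of the 36 genes was -0.48 log2 units, beside -0.03 for all genes. Between 12.5 and 13.5 dpc, 28 of the 36 were higher and 0 lower, where 21.4% of all genes were higher and 17.1% lower, and the median change was 0.81 beside 0.02.

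**Figure D1:**
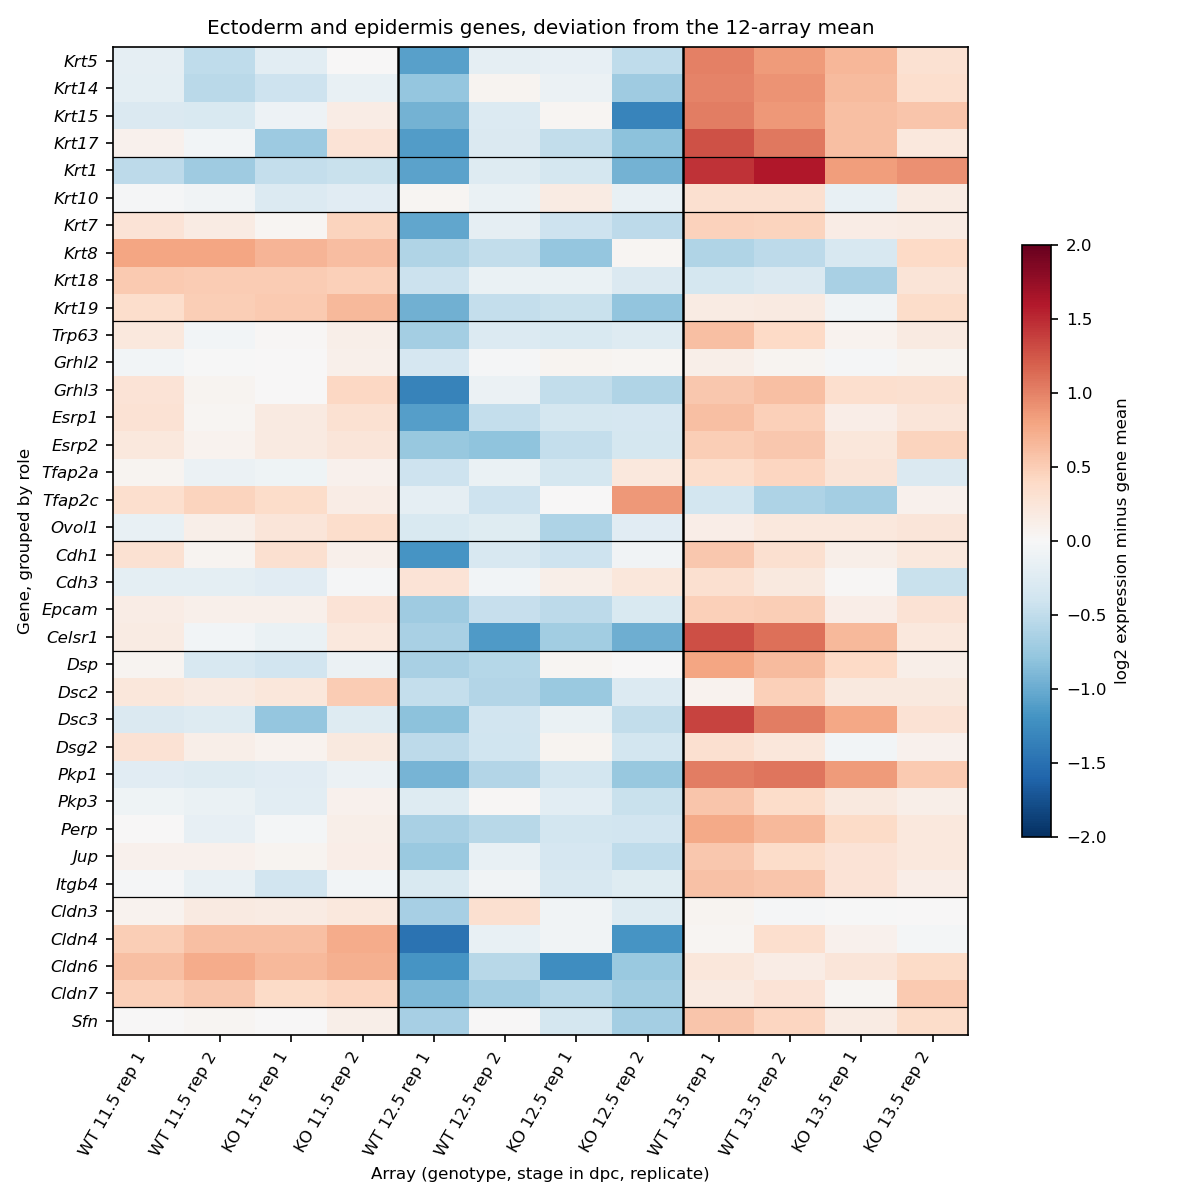
Each row is 1 of the 36 genes, grouped by role, and each column 1 of the 12 arrays. Colour gives the log2 expression minus that gene's mean over the 12 arrays. The columns of 12.5 dpc are mostly blue and those of 13.5 dpc mostly red, while Krt8, Krt18 and Tfap2c are blue in 3 of 4 arrays of 13.5 dpc.

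Stage coincided with the name prefix of the array files given in the labels and, at 13.5 dpc, with the dissected part, so these cannot be told apart. In whole-limb RNA, fewer ectoderm cells and less RNA per cell cannot be told apart either. Taken per array, the median deviation of the 36 genes from their own 12-array means lay between 0.02 and 0.15 at 11.5 dpc, between -0.70 and -0.28 at 12.5 dpc, and between 0.19 and 0.51 at 13.5 dpc. The 3 stages did not overlap. WT 12.5 dpc replicate 1 was the lowest array, at -0.70, while the other 3 arrays of that stage lay between -0.38 and -0.28.

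Markers of other tissues moved between stages as well. For comparison, 12.3% of all genes rose and 21.0% fell to 12.5 dpc, and 21.4% rose and 17.1% fell to 13.5 dpc. All 8 cartilage markers rose from 11.5 to 12.5 dpc, and their summed level went from 13.13 to 13.37 at 11.5 dpc to 13.65 to 14.18 at 12.5 dpc and 13.70 to 14.49 at 13.5 dpc (log2 of the sum). Of the 8 skeletal muscle markers, 3 rose to 12.5 dpc and 7 fell to 13.5 dpc, with sums of 12.88 to 13.02, 12.93 to 14.04 and 12.26 to 12.89. Of the 9 limb mesenchyme markers 5 rose to 12.5 dpc, and 2 rose and 4 fell to 13.5 dpc, with sums of 14.40 to 14.51, 14.71 to 14.81 and 14.53 to 14.71. Of the 7 measured erythroid markers 1 rose to 12.5 dpc and 4 fell to 13.5 dpc, with sums of 15.15 to 15.25, 15.05 to 15.57 and 14.23 to 15.09. Macrophage markers went the way of the ectoderm, 4 of 8 falling and then 5 of 8 rising, with sums of 10.39 to 10.62, 10.10 to 10.37 and 10.40 to 10.56. Among the 8 endothelial markers 3 fell to 12.5 dpc, and 1 rose and 1 fell to 13.5 dpc (11.67 to 11.93, 11.53 to 11.71 and 11.53 to 11.71). Of the 6 measured neuronal and Schwann markers 2 fell to 12.5 dpc, and 2 rose and 1 fell to 13.5 dpc (10.26 to 10.56, 10.09 to 10.69 and 10.09 to 10.35). The sum of the 36 ectoderm genes was 13.44 to 13.62, 12.86 to 13.28 and 13.71 to 14.13. What part these shifts had in the stage changes was not tested.

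Basal keratins are the intermediate filament proteins of the layer that contacts the basement membrane. The 4 genes grouped here under that name, Krt17 among them, rose late, and 4 of 4 passed the threshold between 12.5 and 13.5 dpc. None of the 4 passed between 11.5 and 12.5 dpc. Krt5, the type II partner of keratin 14, lay in WT at 9.71 and 9.38 at 11.5 dpc, 8.80 and 9.71 at 12.5 dpc, and 10.88 and 10.73 at 13.5 dpc. KO arrays read Krt5 at 9.67 and 9.88, 9.72 and 9.37, and 10.55 and 10.19 at the same stages. All 4 arrays of 13.5 dpc lay above all 8 earlier ones, and the lowest value was that of WT 12.5 dpc replicate 1. The rise to 13.5 dpc was 1.19 ± 0.18 log2 units (SE), or 2.28-fold (adjusted p = 0.000818), after a change of -0.26 ± 0.18 that did not pass.

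Krt14, the type I partner of keratin 5, had means of 9.75 ± 0.19, 9.69 ± 0.42 and 10.79 ± 0.30 (SD, 4 arrays) at the 3 stages, and its rise of 1.10 ± 0.19 passed (adjusted p = 0.00146). A separate probe set of Krt14 rose by 1.09 over the same step, and a dim one, at a mean of 5.45, by 0.25. In WT, Krt15, a keratin of basal cells, was read at 8.79 and 8.77 at 11.5 dpc, 8.13 and 8.80 at 12.5 dpc, and 10.10 and 9.95 at 13.5 dpc. KO arrays read Krt15 at 8.97 and 9.23, 9.12 and 7.76, and 9.68 and 9.63. The value of 7.76 in KO 12.5 dpc replicate 2 was the lowest of all 12. Krt15 changed by -0.48 ± 0.25 and then 1.39 ± 0.25 (adjusted p = 0.159 and 0.00183).

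Krt17, grouped here with the basal keratins, is a keratin of periderm, early appendages and wounded skin. In WT, Krt17 read 7.02 and 6.88 at 11.5 dpc, 5.82 and 6.64 at 12.5 dpc, and 8.22 and 7.99 at 13.5 dpc. KO arrays read Krt17 at 6.21 and 7.21, 6.44 and 6.11, and 7.54 and 7.14. The 2 WT arrays of 13.5 dpc were the highest, and KO 13.5 dpc replicate 2 at 7.14 lay below KO 11.5 dpc replicate 2 at 7.21. The changes were -0.57 ± 0.23 (adjusted p = 0.078) and 1.47 ± 0.23 (adjusted p = 0.000881). The other probe set of Krt17, dim at a mean of 3.62, gave 0.07 and -0.03, so it did not show the rise. Some keratin genes are close in sequence, and the Krt14 probe set is of a kind whose probes may match other transcripts. The separation of such keratins is therefore uncertain.

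**Figure D2:**
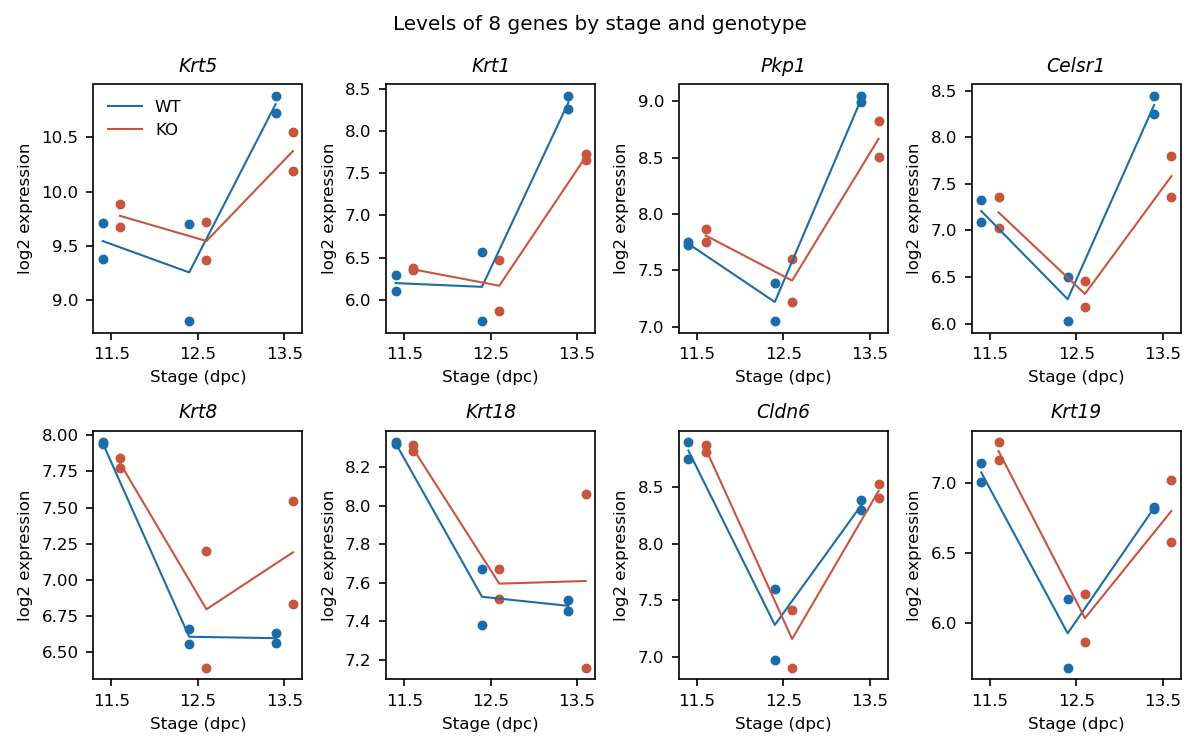
Log2 expression of 8 genes against stage in dpc, with WT in blue and KO in red. Points are single arrays and lines join the means of 2 arrays. Each gene has its own vertical axis, which does not start at 0. Krt5, Krt1, Pkp1 and Celsr1 were highest at 13.5 dpc, Krt8 and Krt18 were highest at 11.5 dpc, and Cldn6 and Krt19 dipped at 12.5 dpc.

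Suprabasal keratins mark cells that have left the basal layer. Krt1 had the largest rise among the 36 genes. Its WT values were 6.29 and 6.11 at 11.5 dpc, 5.75 and 6.56 at 12.5 dpc, and 8.26 and 8.42 at 13.5 dpc. KO arrays read Krt1 at 6.35 and 6.38, 6.47 and 5.87, and 7.66 and 7.73. The 4 arrays of 13.5 dpc, from 7.66 to 8.42, were separate from the 8 earlier ones, which ran from 5.75 to 6.56. Krt1 rose by 1.85 ± 0.17, or 3.62-fold (adjusted p = 7.37e-05), after -0.12 ± 0.17 in the earlier step (adjusted p = 0.63). Krt10, its type I partner, had means of 8.47 ± 0.12, 8.60 ± 0.15 and 8.78 ± 0.22 and passed at neither step (0.13 ± 0.09 and 0.18 ± 0.09).

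Simple keratins, the filament proteins of single-layered epithelia and of the periderm, all fell between 11.5 and 12.5 dpc, 4 of 4 past the threshold. Krt8 lay in WT at 7.94 and 7.95 at 11.5 dpc, 6.55 and 6.66 at 12.5 dpc, and 6.56 and 6.63 at 13.5 dpc. KO arrays read Krt8 at 7.84 and 7.77, 6.39 and 7.20, and 6.83 and 7.55. The 4 arrays of 11.5 dpc, from 7.77 to 7.95, lay above all 8 later arrays, whose highest value was 7.55 in KO 13.5 dpc replicate 2. Krt8 fell by 1.18 ± 0.18, or 2.26-fold (adjusted p = 0.000937), and then changed by 0.19 ± 0.18 (adjusted p = 0.423). Its other probe sets gave -1.25 and -0.86 and then 0.02 and 0.04.

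Krt18, which pairs with keratin 8 and is encoded next to it, followed the same course. WT arrays read Krt18 at 8.33 and 8.32 at 11.5 dpc, 7.38 and 7.67 at 12.5 dpc, and 7.45 and 7.51 at 13.5 dpc. KO arrays read Krt18 at 8.31 and 8.28, 7.67 and 7.52, and 7.16 and 8.06. At 11.5 dpc the 4 values spanned 8.28 to 8.33, above every later array. Krt18 fell by 0.75 ± 0.16 (adjusted p = 0.00538) and then changed by -0.02 ± 0.16 (adjusted p = 0.944).

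The other simple keratins rose again after the dip. Krt19, a keratin without a tail domain, lay in WT at 7.00 and 7.14 at 11.5 dpc, 5.68 and 6.17 at 12.5 dpc, and 6.81 and 6.83 at 13.5 dpc. KO arrays read Krt19 at 7.16 and 7.29, 6.20 and 5.87, and 6.58 and 7.02. All 4 values of 12.5 dpc lay below those of both other stages. The mean was 7.15 at 11.5 dpc and 6.81 at 13.5 dpc. Krt19 fell by 1.17 ± 0.13 (adjusted p = 0.000197) and rose by 0.83 ± 0.13 (adjusted p = 0.000966). Krt7, a keratin of simple and ductal epithelia, had means of 7.86 ± 0.17, 7.09 ± 0.36 and 7.94 ± 0.17, with changes of -0.77 ± 0.16 and 0.84 ± 0.16 that both passed (adjusted p = 0.00467 and 0.0025).

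**Figure D3:**
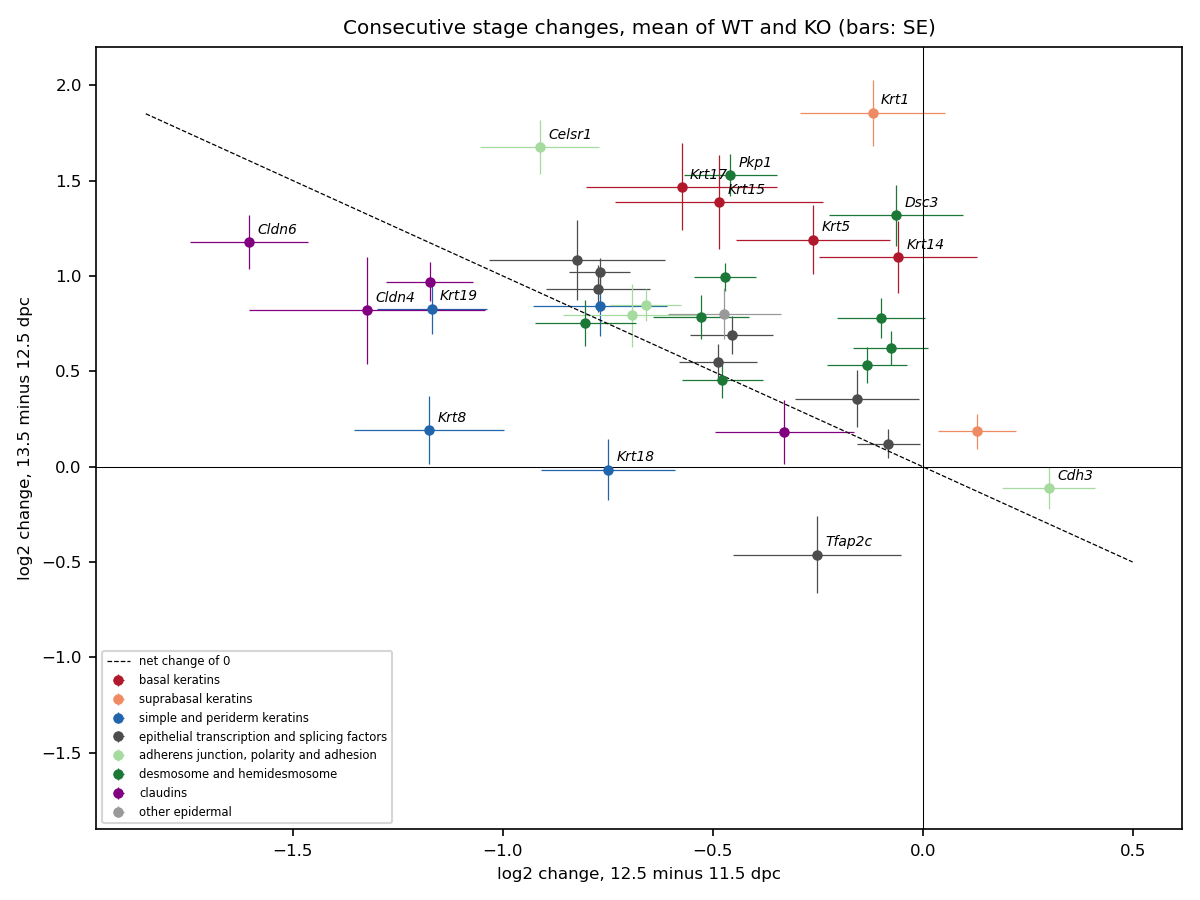
Each point is 1 of the 36 genes, coloured by role. The horizontal axis gives its log2 change from 11.5 to 12.5 dpc and the vertical axis that from 12.5 to 13.5 dpc, both as the mean of WT and KO, with SE bars. The dashed line marks a net change of 0. The basal keratins and Krt1 lie above the line, the claudins, Krt8, Krt18 and Tfap2c below it.

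Claudins, the proteins that seal tight junctions, had the deepest dips by role, with 3 of 4 falling to 12.5 dpc at a median change of -1.25. Cldn6, an embryonic epithelial claudin, showed the largest fall of the 36 genes, with WT values of 8.74 and 8.89 at 11.5 dpc, 6.97 and 7.60 at 12.5 dpc, and 8.38 and 8.29 at 13.5 dpc. KO arrays read Cldn6 at 8.80 and 8.87, 6.91 and 7.41, and 8.40 and 8.53. The 3 stages did not overlap, with 11.5 dpc highest and 12.5 dpc lowest. Cldn6 fell by 1.60 ± 0.14, or 3.04-fold (adjusted p = 7.61e-05), and rose by 1.18 ± 0.14, or 2.26-fold (adjusted p = 0.000232).

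Cldn7, a claudin of many epithelia, was measured in WT at 7.74 and 7.80 at 11.5 dpc, 6.35 and 6.57 at 12.5 dpc, and 7.43 and 7.54 at 13.5 dpc. KO arrays read Cldn7 at 7.64 and 7.68, 6.69 and 6.55, and 7.30 and 7.78. Here too all values of 12.5 dpc were the lowest. The changes were -1.17 ± 0.10 (adjusted p = 7.61e-05) and 0.97 ± 0.10 (adjusted p = 0.000134).

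Cldn4, a barrier claudin, was uneven among replicates. WT arrays read Cldn4 at 7.75 and 7.87 at 11.5 dpc, 5.79 and 7.12 at 12.5 dpc, and 7.30 and 7.60 at 13.5 dpc. KO arrays read Cldn4 at 7.86 and 8.01, 7.19 and 6.09, and 7.35 and 7.23. Within 12.5 dpc 1 array of each genotype was near 6 and the other above 7. The fall of 1.32 ± 0.28 passed (adjusted p = 0.00531), and the rise of 0.82 ± 0.28 passed narrowly (adjusted p = 0.0411). That second call held under 6 of 24 alternatives and was lost without any 1 array other than KO 12.5 dpc replicate 1 and WT 12.5 dpc replicate 2 (adjusted p of up to 0.278 over the alternatives). Cldn3 passed at neither step (-0.33 ± 0.17 and 0.18 ± 0.17).

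Genes of cell adhesion and planar polarity mostly followed the dip. Celsr1, an atypical cadherin that orients epidermal cells and hair follicles, changed at both steps. WT arrays read Celsr1 at 7.32 and 7.10 at 11.5 dpc, 6.50 and 6.02 at 12.5 dpc, and 8.45 and 8.25 at 13.5 dpc. KO arrays read Celsr1 at 7.03 and 7.36, 6.46 and 6.18, and 7.80 and 7.36. All 12.5 dpc arrays were below those of both other stages, and the 2 WT arrays of 13.5 dpc were the highest. Celsr1 fell by 0.91 ± 0.14 (adjusted p = 0.00106) and rose by 1.68 ± 0.14, or 3.19-fold (adjusted p = 5.35e-05).

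Cdh1, encoding E-cadherin of adherens junctions, had means of 7.97 ± 0.13, 7.28 ± 0.47 and 8.07 ± 0.18, and Epcam, an epithelial adhesion protein, of 9.71 ± 0.08, 9.05 ± 0.17 and 9.90 ± 0.17. Both passed at both steps, Cdh1 with -0.69 ± 0.16 and 0.79 ± 0.16 and Epcam with -0.66 ± 0.08 and 0.85 ± 0.08 (adjusted p from 9.82e-05 to 0.00933). Cdh3, encoding P-cadherin, was the exception of this group. Its change was 0.30 ± 0.11 to 12.5 dpc (adjusted p = 0.0602) and -0.11 ± 0.11 to 13.5 dpc, while its dimmer probe set gave -0.44 and 0.73, so the 2 probe sets disagree in sign.

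All 9 desmosome and hemidesmosome genes rose between 12.5 and 13.5 dpc, and 5 of 9 had fallen before. Desmosomes anchor keratin filaments between neighbouring cells, and hemidesmosomes anchor them to the basement membrane. Pkp1, a plakophilin of the desmosomal plaque, read 7.75 and 7.72 at 11.5 dpc, 7.05 and 7.39 at 12.5 dpc, and 8.99 and 9.05 at 13.5 dpc in WT. KO arrays read Pkp1 at 7.75 and 7.86, 7.60 and 7.21, and 8.83 and 8.51. The arrays of 13.5 dpc, from 8.51 up, lay above the other 8, which ended at 7.86. It fell by 0.46 ± 0.11 (adjusted p = 0.0102) and rose by 1.53 ± 0.11, or 2.89-fold (adjusted p = 3.17e-05).

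Dsc3, a desmosomal cadherin of basal cells, was dim, with a 12-array mean of 6.01 below the median of all values of 6.28. WT arrays read Dsc3 at 5.72 and 5.75 at 11.5 dpc, 5.19 and 5.62 at 12.5 dpc, and 7.35 and 7.04 at 13.5 dpc. KO arrays read Dsc3 at 5.23 and 5.75, 5.87 and 5.51, and 6.77 and 6.29. The 13.5 dpc arrays were again all above the earlier ones. Dsc3 rose by 1.32 ± 0.16 (adjusted p = 0.000243) after -0.06 ± 0.16.

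Dsc2, the desmocollin of simple epithelia, lay in WT at 6.83 and 6.77 at 11.5 dpc, 6.12 and 6.01 at 12.5 dpc, and 6.66 and 7.08 at 13.5 dpc. KO arrays read Dsc2 at 6.82 and 7.10, 5.86 and 6.32, and 6.80 and 6.80. Every array of 12.5 dpc was below those of the other stages. Its changes were -0.80 ± 0.12 (adjusted p = 0.000876) and 0.76 ± 0.12 (adjusted p = 0.00102), with a net change over both steps of -0.05 ± 0.12 that did not pass (adjusted p = 0.814).

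Of the other 6 members, Dsg2, Perp and Jup fell and rose. Perp, a p63 target needed for desmosomes, gave -0.47 ± 0.07 and 0.99 ± 0.07, Jup, encoding plakoglobin, -0.53 ± 0.11 and 0.79 ± 0.11, and the cadherin gene Dsg2 -0.48 ± 0.10 and 0.46 ± 0.10. Dsp, which links keratins to the plaque, Pkp3, another plakophilin, and Itgb4, the integrin chain of hemidesmosomes, passed at the second step alone, with 0.78 ± 0.10, 0.53 ± 0.10 and 0.62 ± 0.09. Their earlier changes were -0.10 ± 0.10, -0.13 ± 0.10 and -0.08 ± 0.09. The other bright probe set of Dsp gave 0.38 to 12.5 dpc and 0.26 to 13.5 dpc, and a dimmer one -0.57 and 1.05, so the size of its late rise depended on the probe set.

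Among the 8 transcription and splicing factors, 5 fell and the same 5 rose again, and 3 passed at neither step. Trp63 had means of 8.75 ± 0.11, 8.30 ± 0.20 and 8.99 ± 0.23 and changed by -0.46 ± 0.10 (adjusted p = 0.00618) and 0.69 ± 0.10 (adjusted p = 0.000596). The pair of further Trp63 probe sets brighter than 6.28 had the same signs, and a dim one, at a mean of 5.39, gave 0.83 and -0.87. Esrp1 and Esrp2 encode the regulators of epithelial splicing. Their changes were -0.77 ± 0.12 and 0.93 ± 0.12 for Esrp1, and -0.77 ± 0.07 and 1.02 ± 0.07 for Esrp2 (adjusted p from 2.97e-05 to 0.00119).

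Grhl3, a grainyhead-like factor of barrier formation, lay in WT at 7.72 and 7.51 at 11.5 dpc, 6.13 and 7.33 at 12.5 dpc, and 7.99 and 8.06 at 13.5 dpc. KO arrays read Grhl3 at 7.47 and 7.87, 6.97 and 6.86, and 7.79 and 7.77. WT 12.5 dpc replicate 1 was more than 0.7 log2 units below any other array. The changes were -0.82 ± 0.21 (adjusted p = 0.0131) and 1.08 ± 0.21 (adjusted p = 0.00289). The first call held under 21 of 24 alternatives. It was lost from WT arrays alone, from KO arrays alone and without KO 11.5 dpc replicate 2. The second call was lost from KO arrays alone. Ovol1, a factor that limits growth of differentiating epidermal cells, was dim, with a 12-array mean of 4.68 below the median of all values. It changed by -0.49 ± 0.09 and 0.55 ± 0.09, while its other dim probe set gave 0.16 and -0.13.

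Grhl2, Tfap2a and Tfap2c did not pass at either step. Grhl2, the related factor of early surface ectoderm, had means of 7.89 ± 0.07, 7.81 ± 0.18 and 7.93 ± 0.06. Tfap2a, encoding an AP-2 factor, had means of 9.04 ± 0.10, 8.88 ± 0.28 and 9.24 ± 0.32. Tfap2c, another AP-2 factor gene, had means of 7.44 ± 0.13, 7.19 ± 0.56 and 6.73 ± 0.35, with KO 12.5 dpc replicate 2 highest of all 12 at 7.99. Sfn, encoding stratifin (14-3-3 sigma) of differentiating keratinocytes, fell by 0.47 ± 0.13 (adjusted p = 0.0216) and rose by 0.80 ± 0.13 (adjusted p = 0.00133). The fall of Sfn held under 16 of 24 alternatives. It was lost without KO 11.5 dpc replicate 2, either WT array of 11.5 dpc or KO 12.5 dpc replicate 2. WT arrays alone, KO arrays alone and renewed quantile normalization lost it too, as did leaving out both KO replicate 2 arrays of 12.5 and 13.5 dpc.

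The net change from 11.5 to 13.5 dpc was compared after these values were seen. Of the 36 genes 14 were higher at 13.5 dpc and 3 were lower, where 9.32% of all genes were higher and 15.3% lower. The higher genes were all 4 basal keratins, both suprabasal keratins, Celsr1, 6 desmosome and hemidesmosome genes (Dsp, Dsc3, Pkp1, Pkp3, Perp and Itgb4) and Esrp2. The 3 lower genes were Krt8 (-0.98 ± 0.18), Krt18 (-0.77 ± 0.16) and Tfap2c (-0.71 ± 0.20). Krt1 (1.74 ± 0.17), Dsc3 (1.25 ± 0.16), Pkp1 (1.07 ± 0.11), Krt14 (1.04 ± 0.19) and Krt5 (0.93 ± 0.18) had the largest net rises, with adjusted p from 0.000483 to 0.00616. No claudin passed, with net changes from -0.50 in Cldn4 to -0.15 in Cldn3.

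The count of 17 net changes was 11 without KO 11.5 dpc replicate 1, WT 11.5 dpc replicate 2 or WT 13.5 dpc replicate 1. From KO arrays alone 2 passed, where 1.03% of all genes did, and from WT arrays alone 15, where 15.0% of all genes did. Krt1 and Pkp1 held under all 24 alternatives. Krt10, Tfap2c and Krt15 held under 15 of 24 each, and Esrp2 under 16. A dimmer probe set of Esrp2 gave -0.34 for the net change, against 0.25 for the one used.

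No listed gene passed the threshold between genotypes. Over the 3 stages together 0 of 36 passed in limma, where 0.203% of all genes were called. An unadjusted p under 0.05 was found for 1 of the 36. Counts at an unadjusted p, here and below, come without the share of all genes and describe the lists only. The median KO minus WT difference of the list was -0.01, beside -0.02 for all genes. Itgb4 had the smallest p in that comparison. WT arrays read Itgb4 at 6.45 and 6.32 at 11.5 dpc, 6.17 and 6.40 at 12.5 dpc, and 7.06 and 7.03 at 13.5 dpc. KO arrays read Itgb4 at 6.08 and 6.42, 6.15 and 6.24, and 6.75 and 6.60. The difference over the stages was -0.20 ± 0.07 (adjusted p = 0.624), and both KO arrays of 13.5 dpc lay below both WT arrays. The 95% intervals of the 36 differences had half-widths of 0.13 to 0.51 log2 units, and 35 of them held 0. The targeted gene itself lay below WT in all 6 KO arrays at its stage, with Lmx1b highest among them in KO 13.5 dpc replicate 2 at 8.88, against 10.27 and 10.19 in WT.

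**Figure D4:**
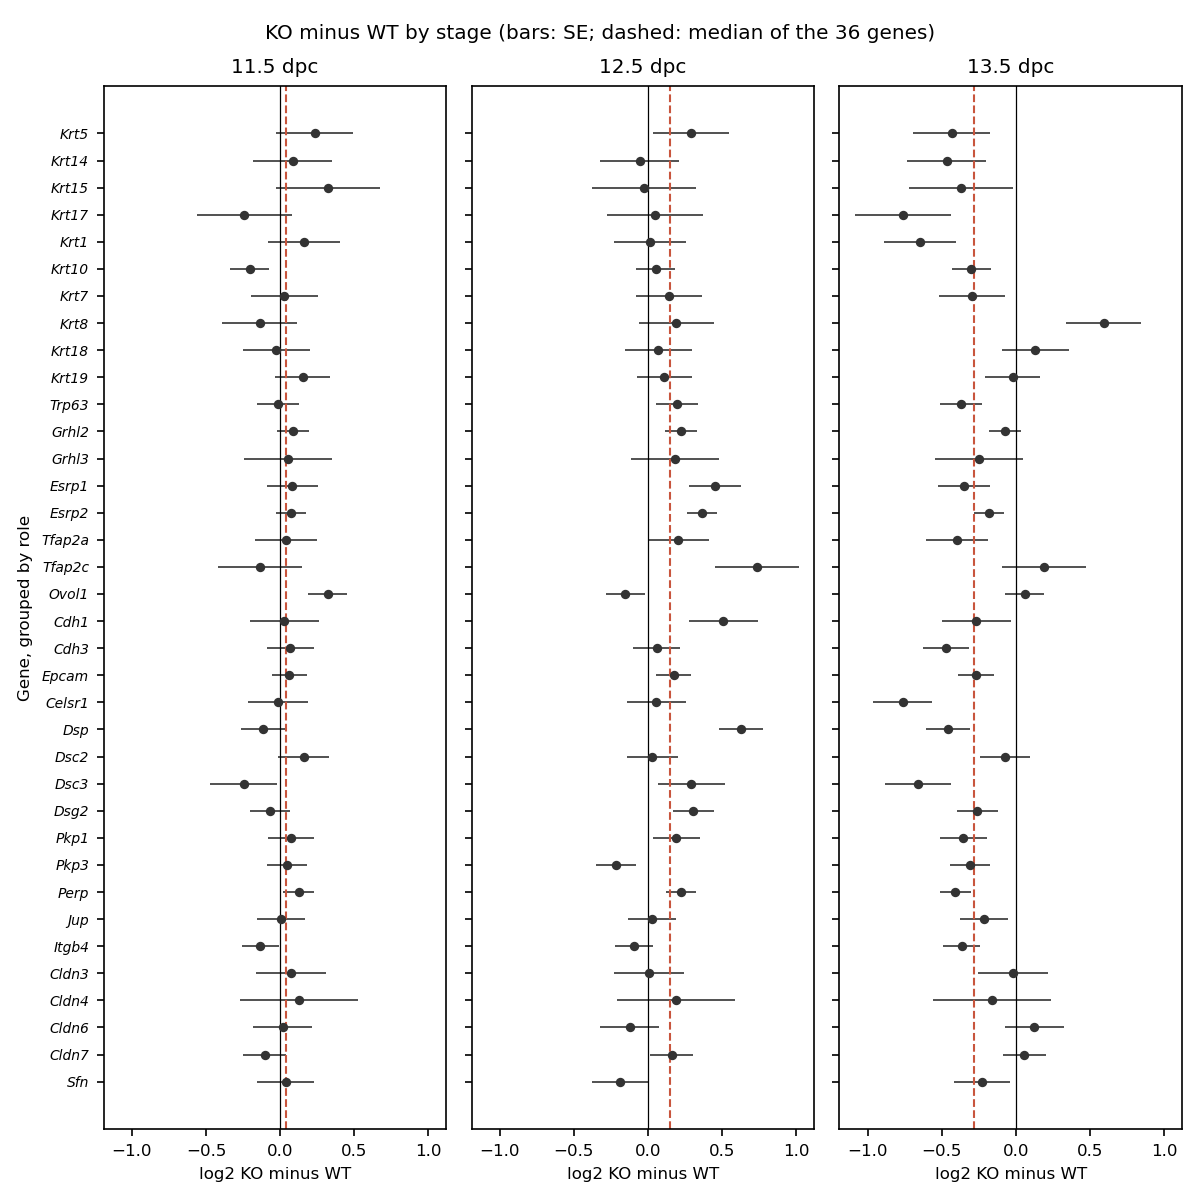
KO minus WT difference of each of the 36 genes on the log2 scale at 11.5, 12.5 and 13.5 dpc, with SE bars. The dashed line is the median of the 36 genes, 0.04, 0.15 and -0.28 in the 3 panels. Most points lie left of 0 at 13.5 dpc, with Krt8 the farthest to the right, and no gene passed the test.

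At 11.5 dpc 0 of the 36 genes passed between genotypes (0.0165% of all genes were called) and 1 had an unadjusted p under 0.05, with a median of 0.04 beside -0.02 for all genes. The sign of the median turned when single arrays were left out, to -0.03 without KO 11.5 dpc replicate 2 and -0.01 without WT 11.5 dpc replicate 2, and it was 0.13 without KO 11.5 dpc replicate 1. Ovol1 had the smallest p. WT arrays read Ovol1 at 4.52 and 4.79 at 11.5 dpc, 4.38 and 4.44 at 12.5 dpc, and 4.81 and 4.88 at 13.5 dpc. KO arrays read Ovol1 at 4.92 and 5.03, 4.07 and 4.44, and 4.89 and 4.93. Both KO arrays of 11.5 dpc lay above both WT arrays, with a difference of 0.32 ± 0.13 (adjusted p = 1). The KO arrays lay wholly above the WT arrays for 6 of 36 genes (16.7%, against 12.8% of all genes) and wholly below for 4 (11.1%, against 26.8%).

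At 12.5 dpc 29 of 36 differences were positive, and again 0 passed (0.0385% of all genes), with 5 at an unadjusted p under 0.05. Dsp had the smallest p. WT arrays read Dsp at 9.75 and 9.37 at 11.5 dpc, 9.04 and 9.13 at 12.5 dpc, and 10.49 and 10.33 at 13.5 dpc. KO arrays read Dsp at 9.31 and 9.59, 9.74 and 9.70, and 10.09 and 9.81. Both KO arrays of 12.5 dpc lay above the WT arrays and both KO arrays of 13.5 dpc below them. The difference was 0.63 ± 0.15 at 12.5 dpc (adjusted p = 0.182). It was read from 1 of the 3 Dsp probe sets, which differed in their stage changes. Esrp2 (0.36 ± 0.10) and Esrp1 (0.45 ± 0.17) came next.

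The size of that shift depended on single arrays and on the choice of probe set. The list's median difference at 12.5 dpc was 0.15, and it was 0.01 without WT 12.5 dpc replicate 1, with 18 of 36 positive, and 0.35 without WT 12.5 dpc replicate 2. The median was 0.10 if KO 12.5 dpc replicate 1 was left out, and with the mean of the probe sets of each gene 0.06. KO 12.5 dpc replicate 2 stood apart in other tissues, with a summed level of 13.65 for the cartilage markers against 14.09 to 14.18 in the other 3 arrays, and of 12.93 for skeletal muscle against 13.70 to 14.04. The part of these markers in the difference was not tested. The KO arrays were wholly above the WT arrays for 7 genes (19.4%, against 15.0% of all genes) and wholly below for 0 (against 19.3%). Without KO 12.5 dpc replicate 1, 1 of 36 genes, Tfap2c, passed (adjusted p = 0.0463, 0.0463 to 0.957 over the alternatives), but so did 2.83% of all genes, and the lone KO array was assumed to vary like the other groups. In the remaining KO 12.5 dpc replicate 2 Tfap2c lay at 7.99, against 6.94 and 6.71 in WT. With no array left out the Tfap2c difference at 12.5 dpc was 0.73 ± 0.28. It was 0.15 ± 0.20 with the mean of its probe sets, so its size depended on the probe set.

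At 13.5 dpc ectoderm genes tended to be lower in KO, though 0 of 36 passed (0.0275% of all genes). An unadjusted p under 0.05 was found for 14, and the share of all genes at that level is not given here. Of the 36 differences 30 were negative, with a median of -0.28 beside -0.01 for all genes. Both KO arrays lay below both WT arrays for 26 of 36 genes (72.2%, against 22.3% of all genes) and above for 3, Krt8, Cldn6 and Ovol1 (8.33%, against 11.6%). With 2 arrays per genotype and genes that share their cells and arrays, this count describes these pools.

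Perp had the smallest p at this stage, with WT values of 9.31 and 9.15 at 11.5 dpc, 8.67 and 8.75 at 12.5 dpc, and 10.07 and 9.96 at 13.5 dpc. KO arrays read Perp at 9.27 and 9.43, 8.94 and 8.92, and 9.70 and 9.52. At 13.5 dpc its groups did not overlap, and the difference was -0.41 ± 0.10 (adjusted p = 0.468). For Celsr1 it was -0.76 ± 0.20 (95% interval -1.21 to -0.32, adjusted p = 0.5). Of the basal and suprabasal keratins Krt17 gave -0.76 ± 0.32, Krt1 -0.64 ± 0.24, Krt14 -0.47 ± 0.27, Krt5 -0.43 ± 0.26, Krt15 -0.37 ± 0.35 and Krt10 -0.30 ± 0.13. The simple keratins had mixed signs, with 0.59 ± 0.25 for Krt8, 0.13 ± 0.23 for Krt18, -0.02 ± 0.19 for Krt19 and -0.30 ± 0.23 for Krt7. KO replicates 1 and 2 of 13.5 dpc read Krt8 at 6.83 and 7.55, against 6.56 and 6.63 in WT. For Krt18 KO replicate 1 at 7.16 lay below both WT arrays (7.45 and 7.51) and replicate 2 at 8.06 above them. Claudins ranged from -0.16 in Cldn4 to 0.13 in Cldn6. Of the desmosomal genes Dsc3 gave -0.66 ± 0.23 and Dsp -0.46 ± 0.15, and the cadherin gene Cdh3 gave -0.47 ± 0.16.

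The lower median in KO at 13.5 dpc was present without either KO array. It was -0.29 with 33 of 36 negative without KO 13.5 dpc replicate 2, and -0.25 with 29 negative without KO 13.5 dpc replicate 1. Without either WT array it was -0.28 and -0.31. Markers of other tissues differed between these pools too. The summed level of the 7 erythroid markers was 14.48 and 15.09 in KO and 14.39 and 14.23 in WT, that of skeletal muscle 12.46 and 12.89 against 12.38 and 12.26, and that of cartilage 14.22 and 13.70 against 14.43 and 14.49. In each of these sums KO 13.5 dpc replicate 2 lay farther from WT than KO replicate 1 did. What part these tissue markers had in the difference was not tested. Median centring of the arrays gave -0.23 with 28 negative, where the median of all genes was 0.05.

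The difference between stages in the KO effect was tested directly. From 11.5 to 12.5 dpc 0 of 36 genes passed (0.0% of all genes) and 2 had an unadjusted p under 0.05. From 12.5 to 13.5 dpc 0 of 36 passed (0.0% of all genes), with 12 at an unadjusted p under 0.05 and a median of -0.43 beside 0.01 for all genes. Dsp had the smallest p in both, with 0.74 ± 0.21 (adjusted p = 0.686) and -1.09 ± 0.21 (adjusted p = 0.339). Both values rest on 1 of the 3 probe sets of Dsp. The median was -0.20 without WT 12.5 dpc replicate 1, with 23 of 36 negative, and -0.28 with the mean of the probe sets of each gene. In WT arrays alone 28 of 36 genes rose from 12.5 to 13.5 dpc (14.5% of all genes) with a list median of 1.01. In KO arrays alone 20 rose (10.4% of all genes) with a median of 0.65. From 11.5 to 12.5 dpc 19 fell in WT (13.1% of all genes, list median -0.55) and 11 in KO (10.6% of all genes, list median -0.44). The 95% intervals of the difference between genotypes in the later step had half-widths of 0.32 to 1.25 log2 units.

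Other epithelial genes outside the list, such as envelope, basement membrane and protease genes, fell more often than they rose to 12.5 dpc and then mostly rose. Of 59 named genes 54 were measured. To 12.5 dpc 22 of 54 fell and 5 rose (median -0.19), and to 13.5 dpc 36 rose and 4 fell (median 0.54). Over all genes 21.0% fell and 12.3% rose at the first step, and 21.4% rose and 17.1% fell at the second. The membrane protease gene Prss8 (-1.09 ± 0.07, adjusted p = 2.25e-05) and the cornified envelope gene Ppl, encoding periplakin (-0.89 ± 0.06, adjusted p = 2.25e-05), fell first, and Lor, encoding loricrin, rose (0.88 ± 0.14, adjusted p = 0.00138). Klf5, a factor of basal epithelial cells (1.39 ± 0.17), Prom2 (1.09 ± 0.15), Ppl (1.05 ± 0.06) and the hemidesmosomal collagen gene Col17a1 (1.02 ± 0.16) had the largest late changes (adjusted p from 7.64e-06 to 0.000861). Prom2 was dim at 12.5 dpc, at 4.74 to 5.48, below the median of all values of 6.28. Between genotypes 0 of the 54 passed at any stage, with 11 at an unadjusted p under 0.05 and a median of -0.18 at 13.5 dpc, where 46 differences were negative.

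The apical ectodermal ridge, the thickened rim of ectoderm that keeps the limb growing out, has its own genes, read here with ectodermal patterning genes as a list of 18. In RNA of limbs the changes of these genes cannot be assigned to the ridge or the ectoderm alone. To 12.5 dpc 10 of 18 fell and 1 rose (median -0.45), where 21.0% of all genes fell and 12.3% rose. To 13.5 dpc 7 rose and 4 fell (median 0.20), where 21.4% of all genes rose and 17.1% fell. Fgf8, the growth factor of the ridge, lay in WT at 7.99 and 8.38 at 11.5 dpc, 6.35 and 5.75 at 12.5 dpc, and 5.73 and 5.62 at 13.5 dpc. KO arrays read Fgf8 at 7.85 and 7.71, 5.11 and 6.17, and 5.90 and 7.43. The arrays of 11.5 dpc were the highest, and KO 13.5 dpc replicate 2 at 7.43 stood above the other 7 later arrays. Fgf8 fell by 2.13 ± 0.32 (adjusted p = 0.000821) and then changed by 0.32 ± 0.32 (adjusted p = 0.448).

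Other ridge and patterning genes fell at the first step, Rspo2, a WNT signal amplifier (-1.78 ± 0.18), Sp8, a ridge factor (-1.08 ± 0.24), and Dlx3, a homeobox gene of epidermis (-0.89 ± 0.09), with adjusted p from 0.000132 to 0.00701. The largest late changes were rises of Dlx3 (1.22 ± 0.09), Sp8 (0.92 ± 0.24) and Cd44, encoding a hyaluronan receptor (0.75 ± 0.10), and a fall of Lgr5, encoding an R-spondin receptor (-0.88 ± 0.16). Wnt7a, the dorsal ectoderm signal upstream of Lmx1b, was the 1 gene that rose to 12.5 dpc (0.38 ± 0.09, adjusted p = 0.0113). None of the 18 passed between genotypes at any stage, with 2, 3 and 3 at an unadjusted p under 0.05. Wnt7a differed by 0.14 ± 0.13, -0.28 ± 0.13 and 0.21 ± 0.13 between KO and WT at the 3 stages, and the ventral ectoderm factor gene En1 by 0.37 ± 0.16, 0.09 ± 0.16 and -0.19 ± 0.16. En1 was dim in all arrays, at 4.31 to 5.67, below the median of all values of 6.28. Sp8 was dim at 12.5 dpc, at 4.57 to 5.94.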

How the data were processed

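The deposited table holds log2 expression for 45101 probe sets on 12 arrays. Per the submitters' processing notes RMA was the tool; its version and any genome build are not given in the sources used here. This method corrects background, quantile-normalizes arrays and summarises probes, and it compresses changes of dim genes. No scanner file was used. The 64 control probe sets, 932 naming several genes and 9160 without a name in the platform's annotation were left out. The brightest probe set (mean of 12 arrays) stood for each of 18193 genes. Group means were fitted to all genes and 12 arrays with limma 3.58.1 in R 4.3.3 (6 residual and 4.22 prior degrees of freedom), two-sided, with Benjamini-Hochberg adjustment over all genes and a threshold of 0.05. The fit was tested on simulated data. The members and lists were chosen with earlier results of these data known. Every member could be named, with all arrays given for the 8 largest called changes per step and the smallest p per genotype comparison; elsewhere up to 4 called genes per list. Replicates were pools from different embryos per the series text. Deviations of same-numbered KO and WT pools correlated at 0.187, -0.12 and -0.087, so numbers were not taken as pairs. The number of arrays limits the precision.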

Additional observations from a re-analysis of the deposited data

How the results depend on the processing

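The counts of called ectoderm genes were computed again under each alternative. Between 11.5 and 12.5 dpc the 21 became 19 to 25 when 1 array was left out, 19 from WT arrays and 11 from KO arrays alone, and 24 without both KO replicate 2 arrays of 12.5 and 13.5 dpc. Between 12.5 and 13.5 dpc the 28 became 27 to 30 without 1 array, 28 and 20 from WT and KO arrays alone, and 31 without both of those KO arrays. For the net change the 17 became 11 to 20 without 1 array, and 2 from KO arrays alone, where 1.03% of all genes passed. Between genotypes at 12.5 dpc the count was 0 to 1 without 1 array, and the 1 arose without KO 12.5 dpc replicate 1, where 2.83% of all genes passed and the lone KO array was assumed to vary like the other groups. In the other genotype comparisons and both differences between stages it was 0 under every alternative run. With a replicate block the stage counts were 21, 27 and 18, and no genotype count changed. The other alternatives (mean of probe sets, all probe sets tested, renewed quantile normalization, median centring, array quality weights, intensity trend with a robust prior, dim genes left out, only the stages compared, not run for the mean over 3 stages) moved no count by over 1.5 times. For single genes, 10 of 21 falls, 19 of 28 rises and 2 of 17 net changes held under all alternatives. Signs turned on a dimmer probe set for Ovol1 (0.16 and -0.13), Trp63 (0.83 and -0.87), Krt17 (-0.0299 to 13.5 dpc) and Esrp2 (-0.34, net), and for Esrp2 as the mean of its probe sets (-0.0415, net). The cause was not tested. Among further probe sets brighter than 6.28, 9 of 9 and 10 of 10 had the sign of the called one at the consecutive steps. Dim probe sets near background limit what can be read of Ovol1 and Dsc3.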
